A study of Homo sapiens with 238 samples.

Results

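αMut1 is a single-cell clone of K562 erythroleukemia cells that was homozygous for CRISPR-Cas9 substitution mutations of the G-quadruplex (G4) motif in HS-40, the distal enhancer of the α-globin genes. Its RNA was sequenced under 7 labels, numbered 1 to 7, and the question here was whether the libraries numbered 1–4 and the libraries numbered 5–7 measured the same cells. The members were chosen by the library titles alone: 4 libraries labelled αMut1 1–4 and 3 labelled αMut1 5–7, among 43 RNA-seq libraries of the α-globin lines and 62 RNA-seq libraries in all. The labels do not say what separates the numbers, nor whether replicates were separate cultures, so p-values measure the spread between these libraries, which may be technical.

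For a check of identity, both sets were compared with αRes1 1–4 and αRes1 5–8, 4 libraries each of a clone made by a further edit of αMut1 cells in which a MYC G4 sequence was inserted in HS-40, and with αWT 1–4 and αWT 5–8, 4 libraries each of unedited K562. All of these cells are K562, and every edited line is a single clone. αMut2, a separately derived mutant clone with 4 libraries, entered the fit. So did αRes2, αRes3 and αRes4, restored clones that, like αRes1, were made by further editing of αMut1 cells. All of these are named only where they place the αMut1 sets. αRes1 5–8 held counts of pseudoautosomal genes that both αMut1 sets lacked, and may stem from another alignment reference, which the labels do not state. Genes counted under 1 of the presumed references only were left out of edgeR comparisons with αRes1 5–8. They were not left out of the distances and correlations between libraries.

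K562 cells derive from a chronic myeloid leukemia in blast crisis and resemble early erythroid cells. They express embryonic and fetal globins, ζ (HBZ) and ε (HBE1) among them, and little adult β-globin (HBB). HS-40 lies in an intron of NPRL3, upstream of the α-globin genes, and binds erythroid transcription factors. A cell that is grown up into a clone passes on its chromosome copies and its silenced and active genes to its descendants, and K562 carries many chromosome rearrangements.

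The αMut1 libraries numbered 1–4 and 5–7 had different transcriptomes, and by group mean the αRes1 sets were nearest to them crosswise. Distances are root mean square (RMS) differences of log2 CPM, gene counts scaled to a common library size, over all genes tested. Libraries of αMut1 1–4 lay 0.308 from each other and libraries of αMut1 5–7 lay 0.261 from each other on average, whereas the 12 pairs across the sets lay 0.788 apart, with a range of 0.758 to 0.839. The same division gave 0.577 in αWT, 0.695 in αRes2 and 1.03 in αRes1. By group mean, all 4 libraries of αMut1 1–4 were nearer to αRes1 5–8 (0.670) than to any other group, αMut1 5–7 included. They lay 0.882 from αRes1 1–4. Single pairs of αMut1 1–4 ranged from 0.628 to 0.737 with αRes1 5–8 and from 0.607 to 0.937 with αRes2 1–4 (mean 0.718). The αRes2 1–4 mean includes αRes2 replicate 3, a shallow library of 4270215 counts, and was not taken without it. All 3 libraries of αMut1 5–7 were nearest to αRes1 1–4 (mean 0.586) and lay 0.832 from αRes1 5–8. Pearson correlation over the same genes gave the same nearest group for 6 of the 7 libraries. For αMut1 replicate 1 it placed αRes2 1–4 and αRes1 5–8 within 0.0001 of each other, with αRes2 1–4 first.

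Under 1 clone label, the 2 αMut1 sets differed by a root mean square of 0.788 in log2 CPM. That was more than either differed from some sets under other labels. Division by number also gave wide distances in αRes1 (1.03) and αRes2 (0.695). The same distance from αMut1 1–4 to αRes2 1–4 was 0.718, and those of αMut1 5–7 were 0.692 to αWT 5–8, 0.702 to αRes2 5–8, 0.746 to αRes2 1–4 and 0.785 to αWT 1–4. αRes2, like αRes1, was made from αMut1 cells, whereas αWT was not. Distances below 0.788 were thus not limited to the crosswise pairs with αRes1, and they do not show which label, if any, is wrong. Every direction below is therefore that of the libraries labelled αMut1 1–4 relative to the libraries labelled αMut1 5–7. The replicate of αRes1 numbered 1 stood apart from αRes1 replicates 2 to 4 in 26 genes that were on in αMut1 1–4 and off in αMut1 5–7 (below). They summed to 9.92 CPM there and to 1.25 to 1.42 CPM in replicates 2 to 4. Over all genes tested, αRes1 replicate 1 lay 0.5315 from αMut1 5–7 and 0.789 from αMut1 1–4 on average. Replicates 2 to 4 lay 0.5322 to 0.683 from αMut1 5–7 and 0.867 to 0.964 from αMut1 1–4. Total counts were 17701807 to 28406158 in αMut1 1–4 and 24939802 to 30174241 in αMut1 5–7, and no pair of replicates agreed within sampling noise. The share of counts from mitochondrially encoded genes was 1.42% to 2.00% in αMut1 1–4 and 0.851% to 1.15% in αMut1 5–7. The K562 marker TFRC, the transferrin receptor, was present in both sets, at 834 to 939 CPM in αMut1 1–4 and 905 to 964 CPM in αMut1 5–7.

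Of 18247 genes tested with edgeR, 5301 (29.1%) were called between αMut1 1–4 and αMut1 5–7 (Benjamini-Hochberg adjusted p under 0.05, fold change past 0.5 in log2). Of these, 2810 (15.4% of genes tested) were higher and 2491 (13.7%) were lower in αMut1 1–4. The unedited line divided in the same way gave nearly as many calls: 4675 genes (25.6%) between αWT 1–4 and αWT 5–8, of which 1822 (9.99%) were higher and 2853 (15.6%) lower in αWT 1–4. What went with the replicate number in preparation and what belonged to the cells cannot be told apart within αMut1. The αMut1 and αWT divisions differed more in the size of the changes than in their number. Between the αMut1 sets 553 genes changed by more than 2 on the log2 scale, against 85 between the αWT sets. The difference between the αMut1 sets was itself different from that between the αWT sets for 5342 genes (29.3%), 3109 (17%) of them higher and 2233 (12.2%) lower.

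The genes with the largest differences were expressed in 1 set and close to silent in the other. FGF13, an intracellular fibroblast growth factor homologue that acts on sodium channels and microtubules (chrX:138614727-139222777, hg38), was at 0.0540, 0.138, 0.0996 and 0.0677 CPM in αMut1 1–4, against 63.3, 64.9 and 61.5 CPM in αMut1 5–7. It was at 67.7, 91.2, 81.8 and 82.8 CPM in αRes1 1–4 and at 0.126, 0.0805, 0.106 and 0.211 CPM in αRes1 5–8. The 2 αMut1 sets did not overlap, nor did the αRes1 sets, and they were ordered the opposite way round. The difference between the αMut1 sets was -9.33 ± 0.17 on the log2 scale (SE; adjusted p = 2.99e-36), and FGF13 was expressed in every other line, at a mean of 35.7 to 59.0 CPM in αMut2, αRes2 to αRes4 and αWT 1–4 and 26.2 CPM in αWT 5–8.

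XKR8, a scramblase that exposes phosphatidylserine on dying cells (chr1:27959588-27968093), was the reverse case. It was at 5.35, 6.73, 5.98 and 6.40 CPM in αMut1 1–4, against 0.0327, 0 and 0.0804 CPM in αMut1 5–7. In αRes1 1–4 it was at 0.398 CPM in replicate 1 and at 0 in replicates 2 to 4, and in αRes1 5–8 it was at 7.73 to 8.81 CPM. Every other line expressed it, with means of 4.24 to 6.79 CPM, so the low level was seen in the libraries labelled αMut1 5–7 and αRes1 1–4 alone among the 11 groups.

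POPDC3, a Popeye domain membrane protein, and CALN1, a neuronal calcium-binding protein, are shown beside these as genes that changed as far but whose level also varied among the other lines. POPDC3 (chr6:105157900-105180014) was at 11, 9.87, 10.4 and 11.1 CPM in αMut1 1–4, against 0, 0.0346 and 0.161 CPM in αMut1 5–7, and averaged 2.16 CPM in αWT 1–4 and 0.825 CPM in αWT 5–8. CALN1 (chr7:71779491-72447151) was at 0.108, 0.0690, 0.0664 and 0.102 CPM in αMut1 1–4, against 21.1, 20.4 and 20.8 CPM in αMut1 5–7 (log2 difference -7.87 ± 0.20, adjusted p = 1.33e-30), and averaged 10.8 CPM in αWT 1–4 and 8.91 CPM in αWT 5–8. Neither gene overlapped between the αMut1 sets.

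Because these genes switched between sets of libraries, the 200 bases upstream of their RefSeq starts on GRCh38.p14 are printed below. They run 5′ to 3′ on the strand of the gene, with the dinucleotide CG in capitals. CG is the site of DNA methylation, and promoters rich in it are commonly active in many tissues. XKR8 (chr1:27959773-27959972, plus strand) has 19 CG in this window and FGF13 (chrX:139205024-139205223, minus strand) has 25. POPDC3 (chr6:105176256-105176455, minus strand) has 3 and CALN1 (chr7:72447144-72447343, minus strand) has 5. The RefSeq start may not be the start used in K562.
XKR8: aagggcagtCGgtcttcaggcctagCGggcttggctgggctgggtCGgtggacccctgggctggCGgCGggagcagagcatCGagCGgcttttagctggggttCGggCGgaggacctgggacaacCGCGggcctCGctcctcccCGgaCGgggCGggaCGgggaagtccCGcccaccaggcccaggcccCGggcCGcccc
POPDC3: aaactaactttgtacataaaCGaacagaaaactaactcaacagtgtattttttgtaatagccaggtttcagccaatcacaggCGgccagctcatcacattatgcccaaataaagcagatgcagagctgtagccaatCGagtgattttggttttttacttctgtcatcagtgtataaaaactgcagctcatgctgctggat
FGF13: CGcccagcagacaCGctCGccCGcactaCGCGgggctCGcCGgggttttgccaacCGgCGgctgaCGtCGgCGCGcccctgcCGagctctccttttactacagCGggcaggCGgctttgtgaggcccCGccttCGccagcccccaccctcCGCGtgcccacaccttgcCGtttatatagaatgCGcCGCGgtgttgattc
CALN1: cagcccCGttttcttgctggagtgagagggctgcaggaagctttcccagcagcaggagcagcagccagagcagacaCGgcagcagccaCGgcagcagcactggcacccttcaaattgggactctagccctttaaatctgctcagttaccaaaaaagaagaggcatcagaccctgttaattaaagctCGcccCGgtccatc

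Among switched genes matched to RefSeq, CG-poor windows were more frequent than among all genes tested that were matched. A gene was counted as switched at a mean of at most 0.1 CPM in 1 αMut1 set and at least 2 CPM in the other, which 38 genes met, 32 of them protein-coding. In the 250 bases upstream of the RefSeq start, at least 10 CG were found in 41.7% of the 24 switched genes matched to RefSeq. The share was 83.5% of the 11044 genes tested that were matched. For the 14 matched genes on in αMut1 1–4 the share was 21.4%, with a median of 4 CG, and for the 10 matched genes on in αMut1 5–7 7 genes had as many, with a median of 19 CG. The motif counted was CG, which reads the same on both strands, and the median over all genes tested was 21. Switched genes were chosen for a mean of at most 0.1 CPM in 1 set. The other genes were not matched to them in level, so these shares are descriptions.

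Of the 38 switched genes, 26 were on in αMut1 1–4 and 12 in αMut1 5–7. The 26 genes summed to 107 to 127 CPM in αMut1 1–4, against 1.21 to 1.49 CPM in αMut1 5–7. In αRes1 5–8 they summed to 79.1 to 81.7 CPM, and in αRes1 1–4 to 9.92 CPM in replicate 1 and 1.25 to 1.42 CPM in the others. The 12 genes summed to 0.414 to 0.643 CPM in αMut1 1–4, against 134 to 135 CPM in αMut1 5–7, and to 128 to 156 CPM in αRes1 1–4 and 0.801 to 1.06 CPM in αRes1 5–8. Neither sum overlapped between the 2 sets of either line. In αRes1 replicate 1 the median level of the 26 genes was 7.94% of their αMut1 1–4 mean, and it was 0.417% to 0.743% in replicates 2 to 4. A mixture of the 2 kinds of library in that replicate was not tested.

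The 12 genes on in αMut1 5–7 followed αRes1 1–4 without exception, all 12 being higher there than in every αRes1 5–8 library. Over all 18227 genes, every αRes1 1–4 library was above every αRes1 5–8 library in 5482 and below in 5345. The 12 genes included LDOC1, a leucine zipper gene of the X chromosome, which averaged 0.0251 CPM in αMut1 1–4 and 19.8 CPM in αMut1 5–7, and THRB, a thyroid hormone receptor, which averaged 0.0220 CPM in αMut1 1–4 and 7.71 CPM in αMut1 5–7. LDOC1 averaged 4.38 CPM and THRB 12.7 CPM in αWT 1–4, so both were also expressed in unedited cells. DACH1, a transcriptional regulator, had no count in any αMut1 1–4 library and averaged 2.40 CPM in αMut1 5–7.

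Of the 26 genes on in αMut1 1–4, 20 were higher in every αRes1 5–8 library than in every αRes1 1–4 library, none was the reverse and 6 overlapped. The counts over all 18227 genes were 5345 higher, 5482 the reverse and 7400 overlapping. BCHE, the serum cholinesterase butyrylcholinesterase, was at 19.9, 18.1, 17.2 and 19.9 CPM in αMut1 1–4, against 0, 0.0692 and 0.0402 CPM in αMut1 5–7, and at 6.45 to 7.00 CPM in αRes1 5–8. It averaged 0.827 CPM in αWT 1–4 and 0.650 CPM in αWT 5–8, so αMut1 1–4 stood above and αMut1 5–7 below the unedited cells. ADAMTS9, a secreted metalloprotease, averaged 4.82 CPM in αMut1 1–4 and had no count in αMut1 5–7. GZMB, the cytotoxic protease granzyme B, averaged 2.27 CPM in αMut1 1–4 but only 0.137 CPM in αRes1 5–8, so not every gene on in αMut1 1–4 was on there.

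Among protein-coding genes with at least 5 CPM in the higher set, the 12 largest rises were BCHE, LRATD1, POPDC3, XKR8, CDH18, PPDPFL, KLF12, RBMS1, ENTHD1, STRA6, EFEMP1 and MUC15. LRATD1 averaged 34.2 CPM in αMut1 1–4 and 0.189 CPM in αMut1 5–7. KLF12, a transcriptional repressor of the Krüppel-like family, averaged 21.1 CPM in αMut1 1–4 and 0.199 CPM in αMut1 5–7, and was near 0 in αWT, at 0.0616 CPM in αWT 1–4 and 0.0917 CPM in αWT 5–8. STRA6, the cell-surface retinol transporter, averaged 5.94 CPM in αMut1 1–4 and 0.117 CPM in αMut1 5–7. EFEMP1, an extracellular matrix fibulin, averaged 20.1 CPM in αMut1 1–4 and 0.418 CPM in αMut1 5–7. CDH18 is a cadherin, MUC15 a membrane mucin and RBMS1 an RNA-binding protein, and all 12 were at or below a mean of 0.418 CPM in αMut1 5–7.

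The 12 largest falls were FGF13, LDOC1, THRB, CALN1, CHST15, FSTL5, MME, ITGA4, LRRTM1, ARHGAP42, IFITM3 and TUBA3C. CHST15, which sulfates chondroitin, averaged 0.151 CPM in αMut1 1–4 and 20.9 CPM in αMut1 5–7 (log2 difference -7.08 ± 0.22, adjusted p = 1.11e-27). MME, the surface peptidase CD10, averaged 0.140 CPM in αMut1 1–4 and 15.3 CPM in αMut1 5–7, and ITGA4, the integrin α4 chain, averaged 0.124 CPM in αMut1 1–4 and 9.88 CPM in αMut1 5–7. IFITM3, an interferon-induced protein that blocks virus entry, was at 3.73, 3.59, 3.98 and 4.37 CPM in αMut1 1–4, against 64.2, 65.4 and 63.1 CPM in αMut1 5–7 (log2 difference -4.03 ± 0.12, adjusted p = 2.23e-28). It was at 82.4 to 101 CPM in αRes1 1–4 and 3.9 to 4.45 CPM in αRes1 5–8, again crosswise, and at 102 to 107 CPM in αWT 1–4 and 45.1 to 52.9 CPM in αWT 5–8.

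**Figure D1:**
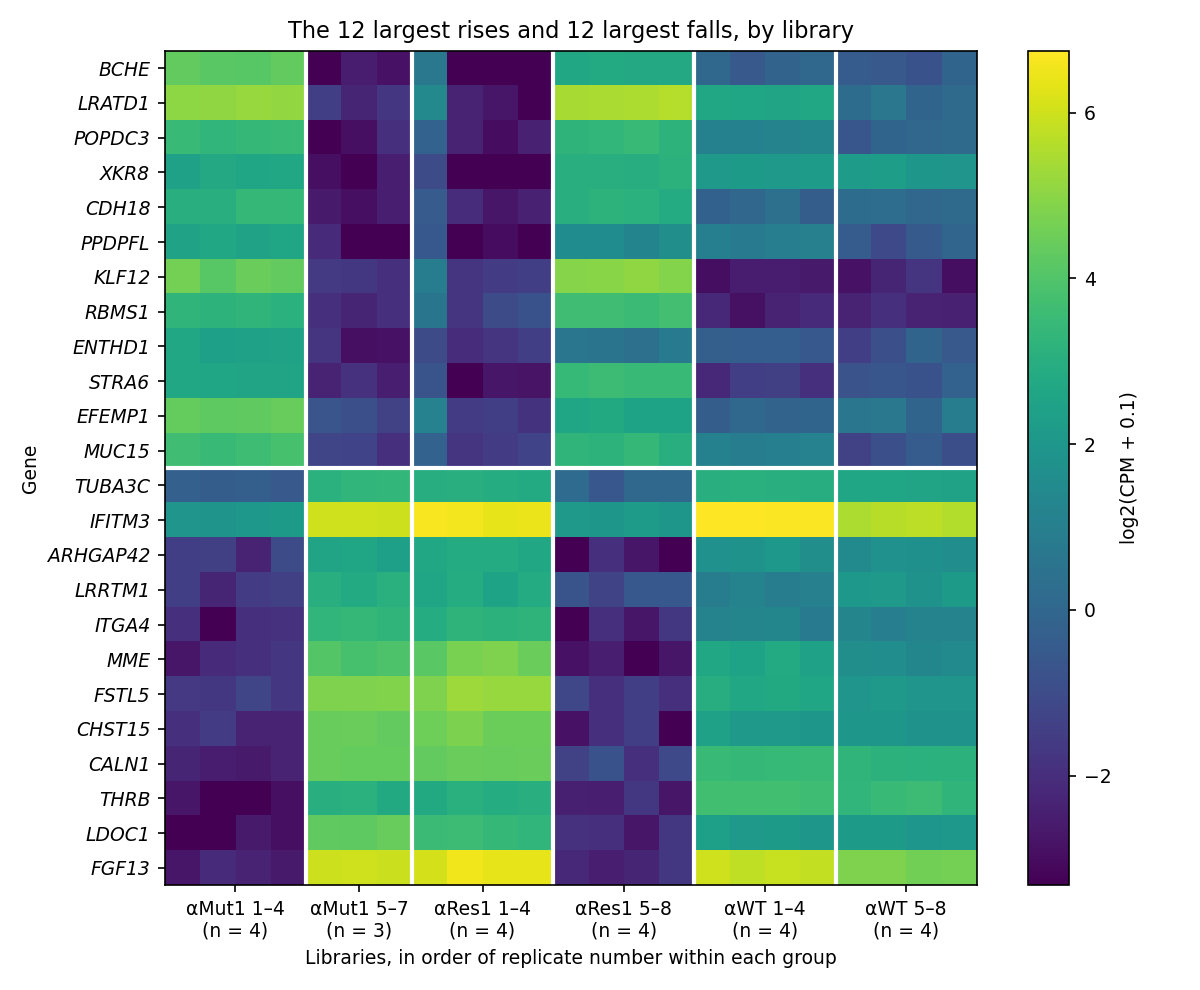
Levels of the 12 largest rises (upper rows) and 12 largest falls (lower rows) in each library, as log2(CPM + 0.1), for αMut1, αRes1 and αWT sets with the number of libraries under each. The pattern of αMut1 1–4 recurs in αRes1 5–8 and that of αMut1 5–7 in αRes1 1–4, with FGF13 at 0.0540 to 0.138 CPM in αMut1 1–4 and 61.5 to 64.9 CPM in αMut1 5–7.

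Genes whose set difference in αMut1 departed most firmly from that in αWT repeated this order. CERS6, a ceramide synthase, was at 62.4, 53.0, 58.5 and 60.3 CPM in αMut1 1–4, against 1.57, 1.32 and 1.25 CPM in αMut1 5–7, while αRes1 1–4 averaged 3.24 CPM and αRes1 5–8 58.6 CPM. Its set difference exceeded that of αWT by 4.86 on the log2 scale (adjusted p = 7.14e-24), and it was expressed in unedited cells at 51.7 CPM in αWT 1–4 and 35.8 CPM in αWT 5–8. EPHB6, a kinase-dead ephrin receptor, averaged 44.6 CPM in αMut1 1–4 and 7.04 CPM in αMut1 5–7, and its excess over αWT was 3.95 (adjusted p = 3.01e-21). RBPMS2, an RNA-binding protein, averaged 16.4 CPM in αMut1 1–4 and 1.85 CPM in αMut1 5–7 (excess 4.18, adjusted p = 1.04e-20), and CDCA7L, a MYC-interacting nuclear protein, averaged 44.3 CPM in αMut1 1–4 and 9.64 CPM in αMut1 5–7 (excess 2.71, adjusted p = 3.11e-22).

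Among genes with large changes, the difference between the αMut1 sets mostly ran against the difference between the αRes1 sets of the same numbers. Over 18227 genes the log2 difference αMut1 1–4 minus αMut1 5–7 had a Pearson r of -0.47 with αRes1 1–4 minus αRes1 5–8, against 0.37 with the same division of αRes2 and 0.22 with that of αWT. No library was shared between these differences, and the points are genes of the same libraries, so the values are descriptions. Over the 553 genes changed by more than 2 between the αMut1 sets, r with αRes1 was -0.81, and 486 of them (87.9%) had the opposite sign there. Over all 18227 genes 9488 (52.05%) had the opposite sign. Of those 553 genes, 419 changed by more than 1 on the log2 scale in the opposite direction in αRes1 and 24 did so in the same direction. The counts over all 18227 genes were 1990 in the opposite direction and 912 in the same direction.

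**Figure D2:**
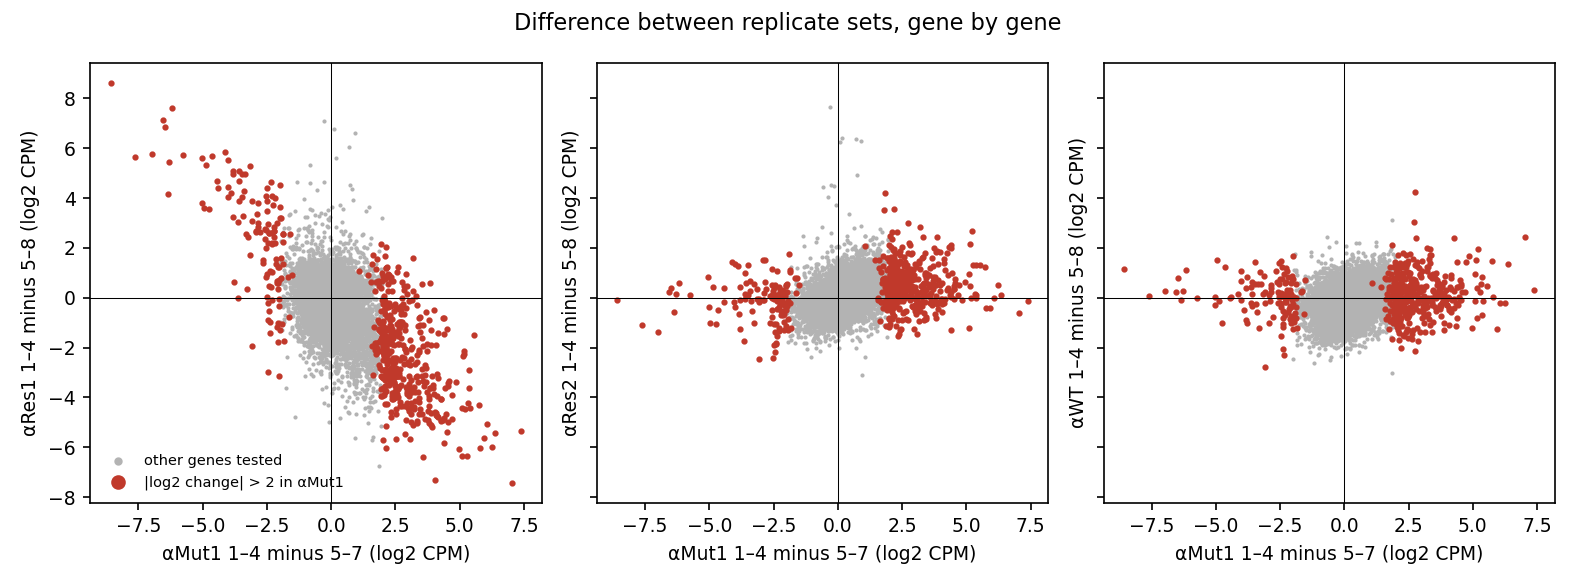
Log2 difference between replicate sets for each of 18227 genes, with αMut1 1–4 minus αMut1 5–7 on the x axis and the same division of αRes1, αRes2 and αWT on the y axes. Genes beyond 2 in αMut1 slope downwards against αRes1 (r = -0.81) and show no such slope against αRes2 (r = 0.26) or αWT (r = 0.047).

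The relation held library by library. Of the 429 genes more than 2 higher in αMut1 1–4, 330 had every αRes1 5–8 library above every αRes1 1–4 library, 19 had the reverse and 80 overlapped. Over all 18227 genes the αRes1 5–8 libraries were all above in 5345 and all below in 5482. Of the 124 genes more than 2 lower in αMut1 1–4, 94 had every αRes1 1–4 library above, 13 had the reverse and 17 overlapped. The 124 genes were also uneven in position, since 18 of them (14.5%) lay between 120 and 160 Mb of the X chromosome, which holds 1.07% of all genes compared, whereas 1 of the 429 higher genes (0.233%) did.

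Whole chromosome segments differed between the αMut1 sets as well as single genes. Median log2 differences were taken in 283 windows of 10 Mb with at least 20 genes, and 14 windows passed 0.5 in size, 8 higher and 6 lower in αMut1 1–4, against 1 window between the αWT sets. Between αMut1 5–7 and αRes1 1–4 no window passed 0.5, and between αMut1 1–4 and αRes1 5–8 5 did, whereas 7 did between αMut1 1–4 and αRes1 1–4 and 5 between αMut1 5–7 and αRes1 5–8. At a limit of 0.25 the counts did not follow the crosswise order, with 49 windows between αMut1 1–4 and αRes1 5–8, 24 between αMut1 5–7 and αRes1 1–4, 40 between αMut1 1–4 and αRes1 1–4 and 41 between αMut1 5–7 and αRes1 5–8. The regions below were chosen after their values were seen and are given without a test.

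Distal Xq, between 120 and 160 Mb, had 195 genes tested, of which 131 were called lower and 9 higher in αMut1 1–4, with a median log2 difference of -0.89 where the median over all genes was 0.0085. The shares over all genes were 13.7% called lower and 15.4% called higher. The median was 0.07 between αWT 1–4 and αWT 5–8. Set against the mean of αWT, the median gene of distal Xq stood at 0.568-fold in αMut1 1–4 and 0.984-fold in αMut1 5–7, at 1.02-fold in αRes1 1–4 and 0.567-fold in αRes1 5–8. αMut2 stood at 1.04-fold, the αRes2 sets at 1.01-fold and 1.02-fold, and αRes3 and αRes4 at 0.625-fold and 0.627-fold. The low level in αMut1 1–4 was thus shared with αRes1 5–8 and, to a lesser degree, with αRes3 and αRes4, while αMut1 5–7, αRes1 1–4, αMut2 and αRes2 stood close to unedited cells. FGF13 and LDOC1 lie in this segment, but both fell far further than the segment as a whole. Fewer chromosome copies and less RNA per copy cannot be told apart in these data.

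Other segments differed as well, and counts of their calls may be read against 15.4% of all genes called higher and 13.7% called lower. The X chromosome between 100 and 110 Mb was higher in αMut1 1–4, with 42 of 60 genes called higher, 2 called lower and a median of 0.91, and stood at 1.63-fold of αWT in αMut1 1–4 and 0.886-fold in αMut1 5–7. This segment was not carried over in full to αRes1 5–8, which stood at 1.14-fold. On chromosome 7 the median was 0.42 from 10 to 60 Mb and -0.32 from 60 to 160 Mb. For the first segment αMut1 1–4 stood at 1.26-fold of αWT and αMut1 5–7 at 0.951-fold, and αMut2, αRes1 5–8 and αRes2 to αRes4 stood on the side of αMut1 1–4, at 1.20-fold to 1.29-fold. On chromosome 1 the median was 0.41 from 60 to 120 Mb and -0.47 from 140 to 170 Mb, and on chromosome 5 it was 0.35 from 0 to 50 Mb, where αMut1 5–7 stood at 0.788-fold and αRes1 1–4 at 0.823-fold of αWT and all other groups between 0.988-fold and 1.04-fold.

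The crosswise order was not shared by every segment. On chromosome 4 between 70 and 190 Mb αRes1 5–8 stood at 0.742-fold of αWT, whereas αMut1 1–4 stood at 0.963-fold, so αRes1 5–8 was not the same as αMut1 1–4 in all respects. Over all 283 windows the difference between the αMut1 sets had an r of 0.16 with αRes1 5–8 minus αRes1 1–4 and of 0.58 with αWT 1–4 minus αWT 5–8. The order was crosswise between αMut1 and αRes1 at distal Xq, on chromosome 5, on both chromosome 7 segments and from 140 to 170 Mb of chromosome 1. It was also crosswise from 50 to 100 Mb of chromosome 16. There αMut1 1–4 stood at 0.807-fold, αMut1 5–7 at 1.015-fold, αRes1 1–4 at 0.965-fold and αRes1 5–8 at 0.758-fold of αWT. The order was not crosswise from 60 to 120 Mb of chromosome 1, where both αRes1 sets stood at 0.767-fold, or from 0 to 10 Mb of chromosome 16.

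A list of 14 genes known to differ between the clones of this series, drawn up from earlier results of these data and so no independent evidence, had 8 members called higher and 4 called lower in αMut1 1–4. Shares over all genes were 15.4% higher and 13.7% lower. Several genes of the list were higher than in unedited cells in both αMut1 sets, and more so in αMut1 1–4. CGA, the glycoprotein hormone α-chain, averaged 28.7 CPM in αMut1 1–4 and 2.34 CPM in αMut1 5–7, against 0.0964 CPM in αWT 1–4 and 0.116 CPM in αWT 5–8. AMBN, an enamel matrix protein, averaged 31.2 CPM in αMut1 1–4 and 1.71 CPM in αMut1 5–7, against 0.0694 CPM in αWT 1–4 and 0.123 CPM in αWT 5–8. GNG2, a G protein γ-subunit, averaged 12.2 CPM in αMut1 1–4 and 1.83 CPM in αMut1 5–7, and ELSPBP1, a sperm-binding protein, 21.2 CPM in αMut1 1–4 and 1.91 CPM in αMut1 5–7, and both were below 0.1 CPM in both αWT sets. All 4 genes averaged at least 12.9 CPM in αRes1 5–8 and less than 1 CPM in αRes1 1–4.

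For other genes of the list both αMut1 sets stood on the same side of unedited cells, with lower averages of CTAG2 and higher averages of NEO1. CTAG2, a cancer-testis antigen, averaged 0.0135 CPM in αMut1 1–4 and 0.469 CPM in αMut1 5–7, against 11.9 CPM in αWT 1–4 and 14 CPM in αWT 5–8. NEO1, the netrin receptor neogenin, averaged 100.5 CPM in αMut1 1–4 and 47.9 CPM in αMut1 5–7, against 10.7 CPM in αWT 1–4 and 6.46 CPM in αWT 5–8. Neither gene identifies αMut1 among the edited clones, since CTAG2 averaged at most 0.334 CPM and NEO1 at least 16.3 CPM in every other edited group.

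The globin genes, among them the α-globin genes for which HS-40 is an enhancer, differed moderately between the sets. HBA1, an α-globin gene (chr16:176680-177522), was at 133, 115, 107 and 119 CPM in αMut1 1–4, against 178, 149 and 175 CPM in αMut1 5–7. The sets did not overlap, and the log2 difference was -0.49 ± 0.14 (adjusted p = 0.00333), just short of the size needed for a call. Without αMut1 replicate 1 or replicate 6 it was -0.55 and -0.57, and a call. αWT 1–4 was lower than αWT 5–8 by a like amount (-0.41 ± 0.13, adjusted p = 0.00849), and the difference of these differences was -0.09, with an interval of 2 SE from -0.48 to 0.30 (adjusted p = 0.740). Because HBA1 and HBA2 have nearly identical sequences and the treatment of reads that match both is not given in the sources used here, their separate values are uncertain.

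Of the 9 globin genes tested, 4 were called lower in αMut1 1–4 and none higher, and in αWT 1–4 7 were called lower and none higher. The shares of all genes called lower were 13.7% in αMut1 1–4 and 15.6% in αWT 1–4. HBE1, embryonic ε-globin, was at 25.3, 23.9, 20.5 and 23.1 CPM in αMut1 1–4, against 51.6, 53.4 and 54.5 CPM in αMut1 5–7, a log2 difference of -1.20 ± 0.10 (adjusted p = 3.39e-13). That was further than in αWT by -0.52 (adjusted p = 0.0027). HBQ1, the θ-globin gene of the α cluster, averaged 6.76 CPM in αMut1 1–4 and 16.7 CPM in αMut1 5–7, and HBA2, the second α-globin gene, 63.4 CPM in αMut1 1–4 and 103 CPM in αMut1 5–7, both without overlap.

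HBZ, embryonic ζ-globin, spanned 195 to 311 CPM in αMut1 1–4 and 295 to 305 CPM in αMut1 5–7, and the ranges overlapped. HBG2, a fetal γ-globin gene, overlapped too, at 256 to 407 CPM in αMut1 1–4 and 348 to 381 CPM in αMut1 5–7 (adjusted p = 0.291). HBB, adult β-globin, was expressed at a low level, 0.797 to 1.13 CPM in αMut1 1–4 and 1.21 to 1.97 CPM in αMut1 5–7. Its call between the αMut1 sets (log2 difference -0.62, adjusted p = 0.033) was lost when αMut1 replicate 3, 4 or 7 was left out, with adjusted p of 0.0976, 0.0613 and 0.233. The set difference in αMut1 exceeded that in αWT by 2.27 for HBB and by 0.61 for HBD, δ-globin, since both genes fell further between the αWT sets (adjusted p = 1.31e-05 and 0.000571).

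**Figure D3:**
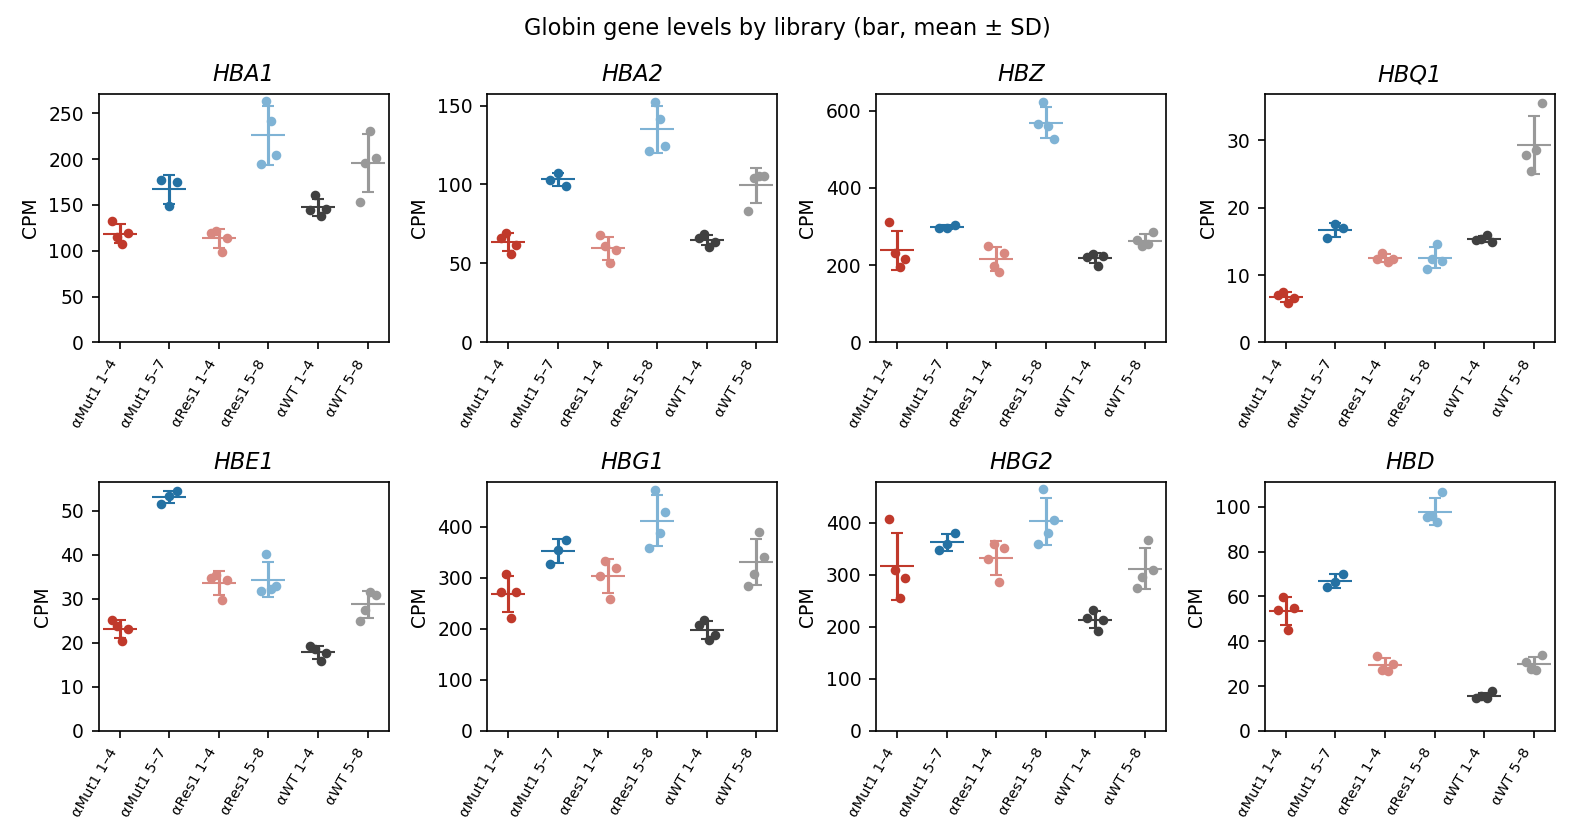
CPM of 8 globin genes, 1 panel each with its own axis from 0, by library in αMut1, αRes1 and αWT sets (points, libraries; bar and whisker, mean ± SD). HBA1 averaged 119 CPM in αMut1 1–4, 167 CPM in αMut1 5–7, 114 CPM in αRes1 1–4 and 226 CPM in αRes1 5–8.

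Which sets were paired decided the direction of the α-globin difference between the mutant and the restored label. In αRes1 1–4 HBA1 was at 120, 122, 98.3 and 114 CPM, and in αRes1 5–8 at 195, 263, 242 and 204 CPM. HBA1 in αMut1 1–4 differed from αRes1 1–4 by 0.06 ± 0.13 (adjusted p = 0.702, interval of 2 SE from -0.20 to 0.33) and in αMut1 5–7 from αRes1 5–8 by -0.43 ± 0.14 (adjusted p = 0.0134) on the log2 scale. Crosswise, αMut1 1–4 was lower than αRes1 5–8 by -0.93 ± 0.13 (adjusted p = 2.61e-07), and αMut1 5–7 was higher than αRes1 1–4 by 0.56 ± 0.14 (adjusted p = 0.0014). HBA2 followed HBA1 in all 4 comparisons, with log2 differences of 0.09, -0.38, -1.09 and 0.80 in that order. Against unedited cells of the same numbers the differences of HBA1 were small, at -0.31 ± 0.13 for αMut1 1–4 against αWT 1–4 (adjusted p = 0.0405) and -0.22 ± 0.14 for αMut1 5–7 against αWT 5–8 (adjusted p = 0.198).

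Genes of red cell formation tended to be lower in αMut1 1–4, which may be read against the 13.7% of all genes called lower. Of 15 genes of heme synthesis and transport, 6 were lower and none higher (median -0.31). ALAS2, the erythroid enzyme that starts heme synthesis, was at 218, 221, 198 and 216 CPM in αMut1 1–4, against 343, 359 and 369 CPM in αMut1 5–7, and PPOX, protoporphyrinogen oxidase, averaged 39.6 CPM in αMut1 1–4 and 106 CPM in αMut1 5–7. ALAS2 ran the other way in unedited cells, with 144 to 157 CPM in αWT 1–4 and 90.1 to 93.4 CPM in αWT 5–8, and the difference of the differences was -1.43 (adjusted p = 9.07e-17).

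Of 27 genes for red cell surface proteins and the membrane skeleton, 11 were lower and 2 higher in αMut1 1–4 (median -0.34), and in αWT 1–4 7 were lower and 3 higher. AQP1, the water channel of the Colton blood group, was at 13.8, 14.8, 14 and 15.2 CPM in αMut1 1–4, against 43.7, 46.0 and 43.9 CPM in αMut1 5–7 (log2 difference -1.62 ± 0.07, adjusted p = 3.84e-23). AQP1 did not follow the crosswise order, being at 41.7 to 47.0 CPM in αRes1 1–4 and 38.4 to 42 CPM in αRes1 5–8. SPTB, the β-chain of erythroid spectrin, was lower in αMut1 1–4 and also lower in αWT 1–4 than in αWT 5–8, with a log2 difference of -1.14 between the αMut1 sets and of -0.86 between the αWT sets.

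Of 19 erythroid transcription factors, 6 were lower and 1 higher (median -0.39). TAL1 averaged 141 CPM in αMut1 1–4 and 225 CPM in αMut1 5–7, and KLF1, the activator of adult β-globin, was at 150 to 164 CPM in αMut1 1–4 and 224 to 264 CPM in αMut1 5–7. GATA1, the main erythroid factor, was at 256 to 275 CPM in αMut1 1–4 and 336 to 354 CPM in αMut1 5–7, a log2 difference of -0.39 that passed the test but not the size for a call. SOX6, which acts with BCL11A on γ-globin, was the factor called higher (log2 difference 0.76, adjusted p = 1.72e-10). Of 10 genes around the α-globin cluster 6 were lower (median -0.55), RHBDF1, MPG, AXIN1, PGAP6, MRPL28 and POLR3K, while NPRL3, whose intron holds HS-40, differed by 0.02. These genes lie in the first 10 Mb of chromosome 16, where the median of 193 genes was -0.52 between the αMut1 sets and -0.30 between the αWT sets.

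Markers of other blood cell types differed in both directions between the αMut1 sets, and their part in the results above was not tested. Their counts may be read against the 15.4% of all genes called higher and the 13.7% called lower. Of 15 megakaryocyte markers 6 were tested, of which 5 were called higher and 1 lower (median 0.85), and the whole list summed to 137 to 144 CPM in αMut1 1–4 and 114 to 125 CPM in αMut1 5–7. ITGA2B, the platelet integrin αIIb, averaged 20.8 CPM in αMut1 1–4 and 5.98 CPM in αMut1 5–7, and THBS1, thrombospondin, 30.8 CPM in αMut1 1–4 and 9.15 CPM in αMut1 5–7. The defining platelet markers PF4, GP1BB and GP9 were at 0 in all 7 libraries. Of 7 granulocyte and monocyte markers tested, 3 were higher and 2 lower (median 0.03), with the list summing to 247 to 275 CPM in αMut1 1–4 and 101 to 107 CPM in αMut1 5–7. LYZ, lysozyme, carried most of that sum, at 209, 199, 178 and 198 CPM in αMut1 1–4 and 55.9, 55.5 and 52.2 CPM in αMut1 5–7. Of 4 lymphoid markers tested, 2, CD3D and CD3E of the T-cell receptor complex, were higher (list sum 23.9 to 28.7 CPM in αMut1 1–4 and 11.4 to 13.3 CPM in αMut1 5–7), and of 5 epithelial markers 2, EPCAM and MUC1, were lower (list sum 644 to 756 CPM in αMut1 1–4 and 763 to 842 CPM in αMut1 5–7). Without αMut1 replicate 7 the log2 difference of EPCAM was -0.49, short of the 0.5 limit.

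Among surface receptors and adhesion proteins of blood cells, 5 of 15 were higher and 3 lower, beside 15.4% and 13.7% of all genes tested. CD44, the hyaluronan receptor, was at 19.0, 15.2, 16.2 and 17 CPM in αMut1 1–4, against 3.60, 3.39 and 2.77 CPM in αMut1 5–7 (log2 difference 2.36 ± 0.17, adjusted p = 2.18e-15). KIT, the stem cell factor receptor, averaged 6.58 CPM in αMut1 1–4 and 2.87 CPM in αMut1 5–7, and EPOR, the erythropoietin receptor, 45.2 CPM in αMut1 1–4 and 64.7 CPM in αMut1 5–7.

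Cancer-testis antigens, germ-line genes many of which lie on the X chromosome, differed in both directions, with 9 of 16 lower and 4 higher in αMut1 1–4 (median -0.78). All genes tested gave 13.7% lower and 15.4% higher. PAGE1 was at 87.8, 101, 80.3 and 96.6 CPM in αMut1 1–4, against 11, 11.2 and 13.1 CPM in αMut1 5–7, and MAGEB2 was at 35.4, 34.8, 32.9 and 36.7 CPM in αMut1 1–4, against 118, 127 and 127 CPM in αMut1 5–7. Neither overlapped between the sets. Of the 16 genes, CTAG2, CT55, MAGEC1, MAGEC2 and the MAGEA genes lie in distal Xq. Near-identical members of the MAGEA and PAGE families can share reads, so their separate values are uncertain.

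The counts of metabolic and signalling genes stand beside the 29.1% of all genes called between the αMut1 sets. Of 30 genes of cholesterol and fatty acid synthesis 9 were lower and none higher (median -0.31), among them CYP51A1, sterol demethylase (log2 difference -1.72), and NSDHL, a sterol dehydrogenase encoded in distal Xq, which averaged 25.5 CPM in αMut1 1–4 and 67.8 CPM in αMut1 5–7. Of 25 genes of glycolysis and hypoxia 5 were lower and none higher, whereas between αWT 1–4 and αWT 5–8 2 were lower and 7 higher. Of 24 interferon-stimulated genes 6 were higher and 8 lower: RSAD2, viperin, was higher by 1.80 and IFIH1, the RNA sensor MDA5, lower by 1.82 on the log2 scale. Of 10 NF-κB target genes 3 were higher, CCL2, CXCL8 and IL6, with CCL2 averaging 11.7 CPM in αMut1 1–4 and 1.54 CPM in αMut1 5–7. Of 19 regulators of DNA methylation and Polycomb 5 were lower, CBX2, CBX7, CBX8, PCGF2 and UHRF1, and DNMT1, the maintenance methyltransferase, differed by -0.36. Without αMut1 replicate 5 the log2 difference of PCGF2 was -0.48, short of the 0.5 limit.

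The counts of the remaining lists stand beside 15.4% of all genes called higher and 13.7% called lower. Mitochondrially encoded genes were higher in 11 of 13 (median 0.71), and the mitochondrial share of counts given above is a sum over the same genes and no separate measure. MT-ND2 was at 1330, 874, 1060 and 1120 CPM in αMut1 1–4 and 704, 525 and 449 CPM in αMut1 5–7. Of 40 cytosolic ribosomal protein genes none was called in either direction by edgeR (median -0.13). Of 29 genes of mitosis and DNA replication 1 was higher and 1 lower, of 25 replication-dependent histone genes 1 was higher and 4 lower, and of 11 heat shock genes none was higher and 3 lower. Of 21 amino acid and CHOP stress genes 3 were higher and 1 lower, of 15 endoplasmic reticulum chaperones 1 was higher and 1 lower, and of 12 antigen presentation genes 1 was higher and 1 lower. Of 13 genes of iron handling 1 was higher and 3 lower, of 16 immediate early genes 2 were higher and 1 lower, of 3 long nuclear RNAs 1 was higher, and of 6 metallothioneins 2 were lower.

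As a check of identity, the calls between each αMut1 set and each αRes1 set were counted. αMut1 1–4 differed from αRes1 1–4 in 5467 genes (30.0%), 805 of them by more than 2, and from αRes1 5–8 in 3977 genes (21.8%), 243 of them by more than 2. αMut1 5–7 differed from αRes1 1–4 in 3763 genes (20.6%), 145 of them by more than 2, and from αRes1 5–8 in 3964 genes (21.7%), 590 of them by more than 2. Without αRes1 replicate 1 the count between αMut1 5–7 and αRes1 1–4 was 4045. The crosswise pairs thus differed in fewer genes by a large amount, but they still differed in 3977 and 3763 genes, beside 4675 between the αWT sets.

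Against unedited cells of the same numbers, αMut1 1–4 differed in 6192 genes (33.9%) and αMut1 5–7 in 4469 (24.5%). These comparisons share no library, and 2173 genes were called in the same direction in both, which is 35.1% of the αMut1 1–4 list and 48.6% of the αMut1 5–7 list, with 416 called in opposite directions. Under the restored label, αRes1 5–8 differed from αWT 5–8 in 6777 genes (37.2%) and αRes1 1–4 from αWT 1–4 in 3042 (16.7%). αMut1 1–4 shared 3700 genes of the same direction with αRes1 5–8 (59.8% and 54.6% of the lists), and αMut1 5–7 shared 1753 with αRes1 1–4 (39.2% and 57.6%). The other mutant clone, αMut2, differed from αWT 1–4 in 2546 genes (14%), of which αMut1 5–7 shared 1024 (22.9% of its own list and 40.2% of the αMut2 list), with 407 in opposite directions. αRes1 5–8 shared 1389 genes of the same direction with αMut2, with 403 in opposite directions. That was 54.6% of the αMut2 list and 20.5% of the αRes1 5–8 list, so a large shared share was not particular to αMut1 1–4. Among genes beyond 2, αMut1 1–4 and αRes1 5–8 shared 652 (67.4% and 61.8%), αMut1 5–7 and αRes1 1–4 shared 243 (48.0% and 56.8%), and αMut1 1–4 and αMut1 5–7 shared 272 (28.1% and 53.8%). αMut2 and αRes1 5–8 shared 143 such genes (45.5% and 13.55%).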

How the data were processed

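All 43 RNA-seq libraries of the α-globin lines were used, in 11 groups of line by replicate number, and 19 β-globin libraries were not. The deposited files hold raw gene counts, which the authors made from 51-base paired poly(A) reads (500 ng RNA per library, a directional kit) by quality trimming at 20, alignment to hg38 with bwa mem, duplicate marking and featureCounts with GENCODE 42. SAMtools 1.15.1 and R 4.3.0 are named in the submitters' processing notes. Whether counting used strand, and how it handled reads shared by genes, is not given in the sources used here. For αMut1 the study states 8 libraries, of which 7 are in the files, and the other was not analysed here. In 16 libraries, αRes1 5–8 among them, counts of 5 pseudoautosomal genes were taken as a sign of another alignment reference, which the labels do not state. For edgeR comparisons with them, 27 genes counted under 1 of the presumed references only were left out. Distances and correlations between libraries were taken over all genes tested, without this exclusion.

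Counts were fitted in R 4.3.3 with edgeR 4.0.16 (limma 3.58.1), quasi-likelihood, TMM scaling, 1 mean per group, on 18247 genes with a mean of at least 10 counts. A call needed a Benjamini-Hochberg adjusted p under 0.05 and a fold change past 0.5 in log2. CPM use TMM-scaled library sizes, and log2 CPM a prior count of 2. Replicates varied by 8.19% (edgeR's common biological coefficient of variation). Exact permutation of 4 against 3 libraries cannot go below 0.0571, so no single-gene permutation p is given. Positions are from GENCODE 44, which held 62625 of 62696 gene IDs. The edgeR step was tested on simulated data.

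Alternatives were RLE scaling, DESeq2 1.42.0, other filters, fewer libraries, no fold threshold, a replicate block and leaving out each replicate. Named genes were the globins, the clone markers, the 12 largest rises and falls among protein-coding genes of at least 5 CPM in the higher set with no overlap, up to 4 members per list by adjusted p, switched genes, and up to 4 genes in each direction by adjusted p of the difference of set differences. Other genes, such as KIT, EPOR, GZMB, NPRL3 and DNMT1, were added after their values were seen. The members and gene lists were chosen with earlier results of these data known. Replicate numbers did not pair the samples. Some genes are not reported here.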

Additional observations from a re-analysis of the deposited data

Results flagged for a closer look

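Differences between the αMut1 sets were larger or smaller than those between the αWT sets by an interaction term in edgeR for 5342 genes. The difference of the set differences on the log2 scale was -10.50 for FGF13, -8.14 for CALN1, -7.63 for FSTL5, -5.12 for IFITM3 and -0.52 for HBE1. It was 4.86 for CERS6, 4.18 for RBPMS2, 3.95 for EPHB6, 2.71 for CDCA7L, 2.27 for HBB and 0.61 for HBD.

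The total of αMut1 replicate 1, 17701807 counts, stood apart from the other 3 libraries of αMut1 1–4, the only one of 46 values checked in that set whose gap to its neighbours passed 0.829 of the range. About 1 in 20 such checks passes by chance. Leaving this library out kept the count of genes called between the αMut1 sets within the range given below.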

How the results depend on the processing

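The counts of genes called in the 12 comparisons stayed within 1.5 times under RLE scaling, both other filters, DESeq2, fits of fewer libraries and leaving out replicates, and the crosswise nearest groups were the same on average by Pearson correlation and over the 2000 most variable genes. With no fold threshold, calls were 10134 between the αMut1 sets, 10429 between the αWT sets and 8502 for the difference of the 2. They were 10658 and 9138 for αMut1 1–4 against αRes1 1–4 and 5–8, 8942 and 7647 for αMut1 5–7 against αRes1 1–4 and 5–8, 11314 for αMut1 1–4 against αWT 1–4, 8943 for αMut1 5–7 against αWT 5–8, 5783 for αMut2, 7023 for αRes1 1–4 and 11477 for αRes1 5–8 against αWT of the same numbers. More genes pass that rule by construction, since small changes count. Leaving out 1 replicate gave 4967 to 5346 calls between the αMut1 sets and 3339 to 4045 between αMut1 5–7 and αRes1 1–4. HBA1 was called between the αMut1 sets, at log2 differences of -0.50 to -0.57, with no filter, in a fit of the libraries compared only, and without αMut1 replicate 1 or 6.

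No paired analysis was possible because αMut1 1–4 and αMut1 5–7 share no replicate number. A replicate block elsewhere gave 5005 calls for the difference of set differences, 5467 for αMut1 1–4 against αRes1 1–4, 4221 for αMut1 5–7 against αRes1 5–8, 6305 for αMut1 1–4 against αWT 1–4 and 4423 for αMut1 5–7 against αWT 5–8. The numbers did not pair these samples.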
